A study of Mus musculus with 9 samples.

Results

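The 10 mesenchymal matrix and pericyte genes described here are Dcn, Lum, Kera, Bgn, Fn1, Col1a1, Col1a2, Col3a1, Pdgfrb and Rgs5, out of 22103 gene symbols on the array. They were chosen by their log2 values on these same arrays, with the response to both hairpins already known, so their difference from the control hairpin is given as a description, and no test of it is read. RNA was measured in primary cortical neurons from C57BL/6 mouse embryos of embryonic day 15, on 3 arrays for each of 3 groups. One group was infected with a lentivirus carrying the short hairpin RNA shTdp-43-1 and another with shTdp-43-2, both directed against mouse Tdp-43, an RNA-binding protein encoded by Tardbp; the control group received the hairpin shCont. All 9 samples shared the rest of the protocol. The meninges were removed before the cortex was dissociated, the cells received AraC, which kills dividing cells, on day 2, the virus was present for 4 h on day 5, and RNA was harvested on day 11, after 6 more days. The culture may be mixed, since any glia or vessel-associated cells that survive AraC would stay in the dish. The labels name no promoter that would limit a hairpin to neurons. The series text calls the cells motor neurons and counts the 11 days from transfection, whereas the sample labels call them cortical neurons and count from the start of the culture; the length of the knockdown is thus given in 2 ways.

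Decorin, lumican, keratocan and biglycan are small leucine-rich proteoglycans, secreted proteins whose curved core binds collagen fibrils and sets their spacing. Fibronectin and the fibrillar collagens form the interstitial matrix itself, and in brain tissue this matrix is laid down mostly by fibroblasts of the meninges and of large vessels. Pericytes wrap capillaries, depend on the PDGF-B receptor Pdgfrb, and carry Rgs5, which dampens G-protein signalling. None of these genes is limited to one cell type, and a bulk array cannot tell fewer cells of a type from less RNA per cell.

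The array carries probe sets along the exons of each gene, and a gene value here is the mean log2 value of its probe sets whose 9-array mean reached the median of the table, 6.07. At least 3 such probe sets were required for a test, which 16770 genes and 9 of the 10 members met. Lum had 1 of 5 and was left out of the fit. A gene was called at a Benjamini-Hochberg adjusted p under 0.05 in a limma fit of all 3 groups. Tardbp, the targeted gene, had log2 values of 7.84, 8.23 and 8.55 with shTdp-43-1 and of 8.22, 8.58 and 7.90 with shTdp-43-2, against 9.77, 9.94 and 10.06 with shCont, which is 30.4% and 30.9% of the shCont level. Arrays of one group correlated at 0.985 to 0.994 over the tested genes. The 10 tested neuron markers averaged between 11.21 and 11.37 with shTdp-43-1, between 11.09 and 11.23 with shTdp-43-2, and between 11.17 and 11.24 with shCont.

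The 10 genes are described in 4 sets. Bgn, Kera, Pdgfrb and Rgs5 were called lower with both hairpins. Dcn and Fn1 were lower with both but called only with shTdp-43-2. With shTdp-43-1 they changed by -0.29 and -0.45, beside -0.40 for Rgs5, which was called. Lum was lower with shTdp-43-1 and not with shTdp-43-2. The 3 fibrillar collagens were 0.14 to 0.15 log2 units higher with either hairpin and called with neither. The sets follow the threshold of a call and only order the text. Counted over the 9 tested members, 4 were called lower and 0 higher with shTdp-43-1, and 6 were called lower and 0 higher with shTdp-43-2. Over all tested genes, 5.96% were called lower and 5.16% higher with shTdp-43-1, and 14.1% lower and 7.76% higher with shTdp-43-2. The choice of the members used these contrasts, so nothing is read from their counts. The median change of the tested members was -0.40 for the first hairpin and -0.83 for the other, beside 0.01 and -0.01 over all tested genes. All 3 hairpin arrays lay below all 3 shCont arrays for 5 of the 9 members in the shTdp-43-1 group and for 6 in the shTdp-43-2 group. That holds for 18.1% and 23.4% of all tested genes. Separation of the hairpin groups from each other, or of all 3 groups, was not counted over all tested genes.

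**Figure D1:**
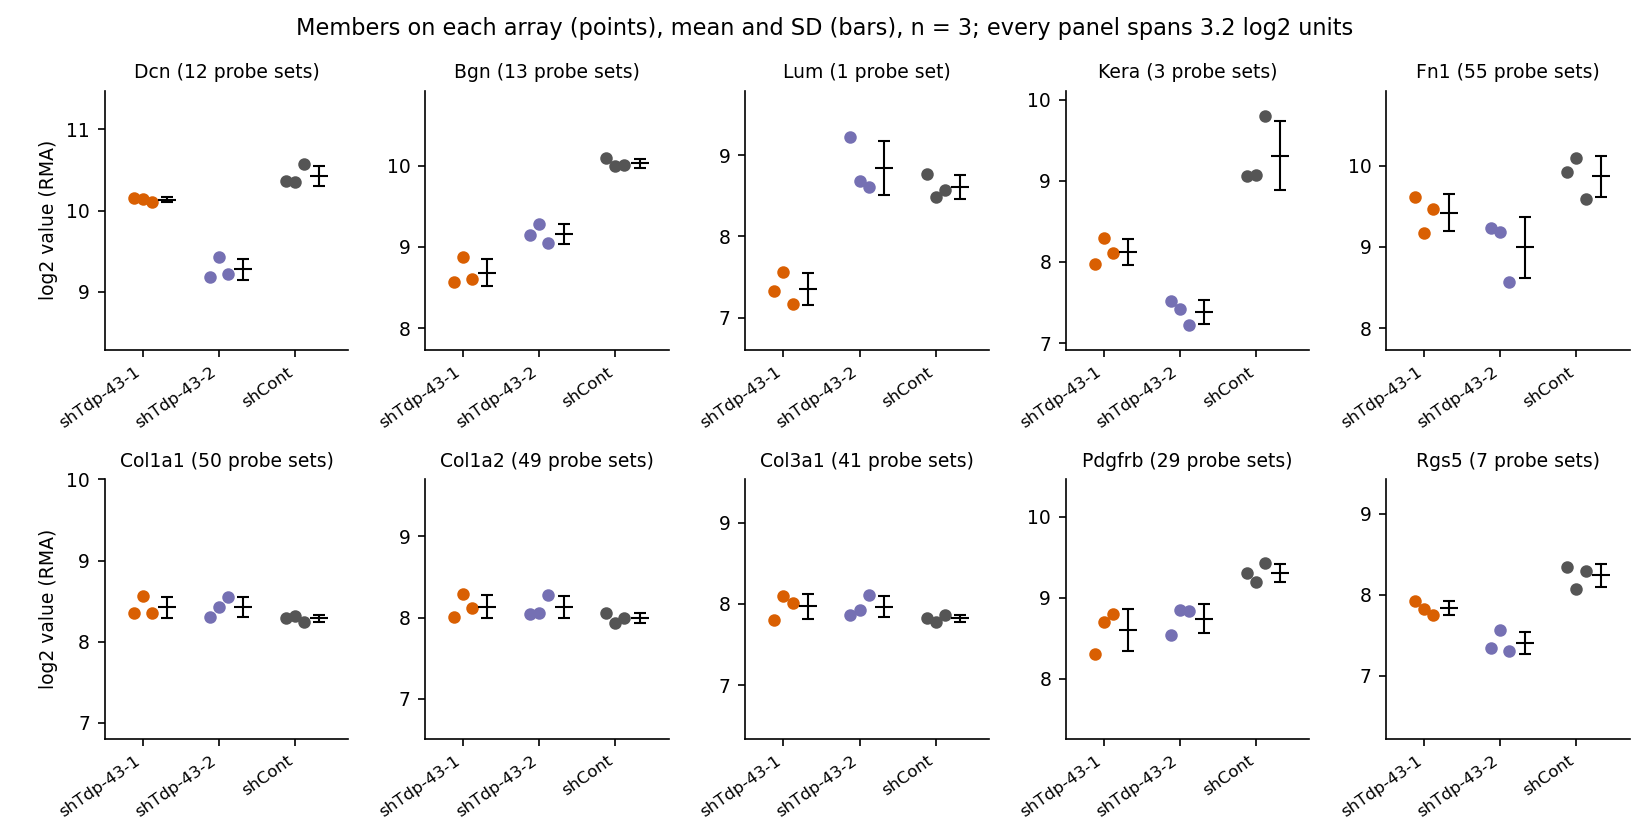
Log2 value of each of the 10 genes on each array (vertical axis, RMA scale; points are arrays, bars the mean and SD of n = 3), with shTdp-43-1, shTdp-43-2 and shCont from left to right; every panel spans the same height, so slopes can be set side by side but levels of different genes cannot. Kera and Bgn show the widest separation of both hairpin groups from shCont, Lum is low only in the shTdp-43-1 arrays, and the 3 collagen panels are nearly flat.

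The small leucine-rich proteoglycans come first. Dcn, which binds collagen fibrils and TGF-beta, measured 10.16, 10.15 and 10.10 with shTdp-43-1, 9.19, 9.42 and 9.22 with shTdp-43-2, and 10.36, 10.35 and 10.57 with shCont. The 3 shTdp-43-2 arrays stood apart from both other groups, and the 3 shTdp-43-1 arrays lay just under the lowest shCont array. The log2 change was -0.29 ± 0.0914 (SE) with shTdp-43-1, which was not called, and -1.15 ± 0.0914 with shTdp-43-2, a level of 45.0% of shCont. With shTdp-43-1 Dcn was called lower in 2 of 18 alternative settings, eBayes with trend and without shTdp-43-2 replicate 2 (limma adjusted p = 0.0431 and 0.0487). With shTdp-43-1 all 12 kept probe sets were lower, by 0.12 to 0.55; with shTdp-43-2 all 12 were lower and 10 of them by at least 1 log2 unit. The remaining 2 kept Dcn probe sets were the dimmest ones, with mean values of 6.07 and 6.64, next to the threshold at which a probe set was dropped; the brightest one left out averaged 5.89. With the 7 dim probe sets of Dcn counted in, its change with shTdp-43-2 was -0.74.

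Bgn, a second collagen-binding proteoglycan, measured 8.57, 8.88 and 8.60 with shTdp-43-1, 9.14, 9.29 and 9.05 with shTdp-43-2, and 10.09, 9.99 and 10.01 with shCont. No array of any group overlapped another group, and shTdp-43-1 was lowest. The change was -1.35 ± 0.0998 for shTdp-43-1, and -0.87 ± 0.0998 for shTdp-43-2, or 39.3% and 54.7% of the shCont level. Of the 13 kept probe sets, 12 were lower with each hairpin, and 9 and 8 of them by at least 1 log2 unit. The order of the hairpins was thus the opposite of that of Dcn.

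Kera, the proteoglycan best known from the cornea, measured 7.97, 8.29 and 8.11 with shTdp-43-1, 7.51, 7.42 and 7.23 with shTdp-43-2, and 9.06, 9.07 and 9.80 with shCont. Its 3 groups did not overlap either, with shTdp-43-2 lowest and 1 shCont array well above the other two. The change was -1.19 ± 0.175 for shTdp-43-1, and -1.92 ± 0.175 for shTdp-43-2, the furthest of the 9 tested members, which left 44.0% and 26.4% of the shCont level. The 3 kept probe sets did not shift by one amount: probe set 5000413 changed by -1.67 and -3.04, probe set 4665098 by -0.96 and -1.66, and probe set 4872910 by -0.93 and -1.07. The probe set dropped as dim, with a mean of 5.16, was also lower, with changes of -1.86 and -1.97.

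Lum, which binds collagen fibrils as Dcn does, has a single kept probe set, which read 7.33, 7.56 and 7.17 on the shTdp-43-1 arrays, 9.23, 8.69 and 8.62 on the shTdp-43-2 arrays, and 8.77, 8.48 and 8.58 on the shCont arrays. The shTdp-43-1 arrays lay under every other array, with 7.56 against 8.48 for the nearest pair, and the shTdp-43-2 and shCont arrays overlapped. This is a change of -1.26 for shTdp-43-1, and of 0.24 for shTdp-43-2. All 4 dim probe sets of Lum were lower with shTdp-43-1 too, by 0.27 to 1.53, and 3 of the 4 were higher with shTdp-43-2. Dcn, Lum and Kera are direct neighbours on mouse chromosome 10, followed by Epyc (epiphycan), a proteoglycan of the same family, in the RefSeq annotation of GRCm38.p6. Epyc itself changed by -0.30 and -0.10, neither of which was called; it was picked out after its values were seen.

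Fibronectin, the glycoprotein that links collagens and integrins, was read by 55 kept probe sets. Fn1 measured 9.62, 9.17 and 9.47 with shTdp-43-1, 9.24, 9.18 and 8.56 with shTdp-43-2, and 9.92, 10.09 and 9.59 with shCont. The shTdp-43-1 arrays overlapped the shCont arrays and the shTdp-43-2 arrays did not. The change was -0.45 ± 0.185 with shTdp-43-1, which was not called, and -0.87 ± 0.185 with shTdp-43-2, 54.6% of the shCont level; the 2 hairpins were not called apart for Fn1. Of its kept probe sets, 54 of 55 were lower with shTdp-43-1 and 55 of 55 with shTdp-43-2. Their changes ran from 0.02 to -0.79 with shTdp-43-1 and from -0.07 to -1.40 with shTdp-43-2. The positions of these probe sets along the transcript were not examined.

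The fibrillar collagens were not called with either hairpin. Col1a1 and Col1a2 encode the chains of type I collagen and Col3a1 that of type III. Col1a1 measured 8.35, 8.57 and 8.35 with shTdp-43-1, 8.31, 8.42 and 8.55 with shTdp-43-2, and 8.30, 8.32 and 8.24 with shCont. Col1a2 measured 8.0, 8.29 and 8.12 with shTdp-43-1, 8.04, 8.06 and 8.28 with shTdp-43-2, and 8.05, 7.93 and 7.99 with shCont. In Col3a1 the values were 7.80, 8.10 and 8.01 with shTdp-43-1, 7.86, 7.92 and 8.11 with shTdp-43-2, and 7.83, 7.77 and 7.87 with shCont. The groups overlapped in all but 1 of these comparisons, Col1a1 with shTdp-43-1, whose 3 arrays lay just above shCont. All 3 shTdp-43-1 arrays lay above all 3 shCont arrays for 16.9% of all tested genes. The 3 genes shared their high arrays: replicate 2 was the highest shTdp-43-1 array and replicate 3 the highest shTdp-43-2 array for each of them.

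As log2 changes with their SE, shTdp-43-1 gave 0.14 ± 0.0909 for Col1a1, 0.14 ± 0.0975 for Col1a2 and 0.15 ± 0.0972 for Col3a1. With shTdp-43-2 the values were 0.14 ± 0.0909, 0.14 ± 0.0975 and 0.14 ± 0.0972 in the same order. None of the 3 was called in any of 18 alternative settings; Col1a2 with shTdp-43-2 turned to -0.02 when the median of its probe sets was taken. With shTdp-43-1, 42 of 50 kept Col1a1 probe sets, 37 of 49 of Col1a2 and 32 of 41 of Col3a1 were higher; with shTdp-43-2 the numbers were 39, 34 and 34. As dim, 5 of 55 probe sets of Col1a1, 17 of 66 of Col1a2 and 18 of 59 of Col3a1 were dropped. The same held for 7 of 19 of Dcn, 4 of 5 of Lum and 2 of 9 of Rgs5. RMA compresses differences near background, and how far the collagens lay above background was not tested.

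**Figure D2:**
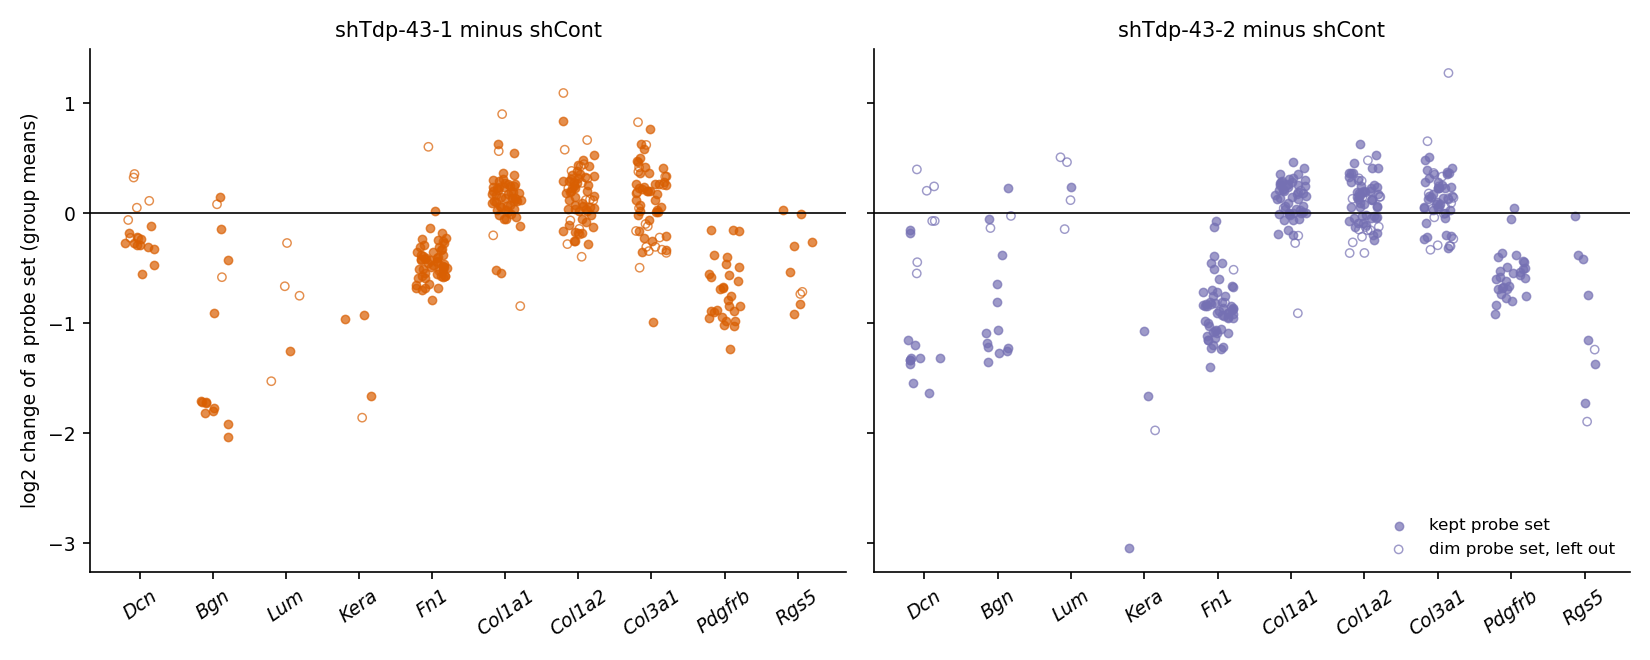
Log2 change of each probe set of the 10 genes (vertical axis; difference of group means, n = 3 arrays each), for shTdp-43-1 minus shCont on the left and shTdp-43-2 minus shCont on the right; filled points entered the gene value and open points were dropped as dim. The Fn1 and Pdgfrb clouds lie below 0 almost as a whole, the collagen clouds centre just above 0, and the Dcn cloud lies near -0.28 on the left and near -1.32 on the right.

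Pdgfrb, the receptor through which endothelial PDGF-B recruits pericytes, measured 8.30, 8.70 and 8.79 with shTdp-43-1, 8.54, 8.85 and 8.84 with shTdp-43-2, and 9.30, 9.19 and 9.42 with shCont. Both hairpin groups lay wholly below shCont and overlapped each other. The change was -0.71 ± 0.133 for shTdp-43-1, and -0.56 ± 0.133 for shTdp-43-2, which left 61.3% and 67.8% of the shCont level. All 29 of its probe sets were kept, and 29 and 28 of them were lower.

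Rgs5, an inhibitor of G-protein signalling and a common pericyte marker, measured 7.92, 7.82 and 7.75 with shTdp-43-1, 7.34, 7.57 and 7.31 with shTdp-43-2, and 8.34, 8.07 and 8.30 with shCont. Its 3 groups did not overlap, and shTdp-43-2 was lowest. The change was -0.40 ± 0.100 for shTdp-43-1, and -0.83 ± 0.100 for shTdp-43-2, or 75.6% and 56.2% of the shCont level. The call with shTdp-43-1 was lost without shCont replicate 1 (adjusted p = 0.107 by limma), shCont replicate 3 (0.0821), shTdp-43-1 replicate 2 (0.0731) or shTdp-43-1 replicate 3 (0.0946), and with the median of probe sets (change -0.30, 0.163). Probe sets of Rgs5 ran from 0.03 to -0.91 with shTdp-43-1 and from -0.03 to -1.72 with shTdp-43-2.

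**Figure D3:**
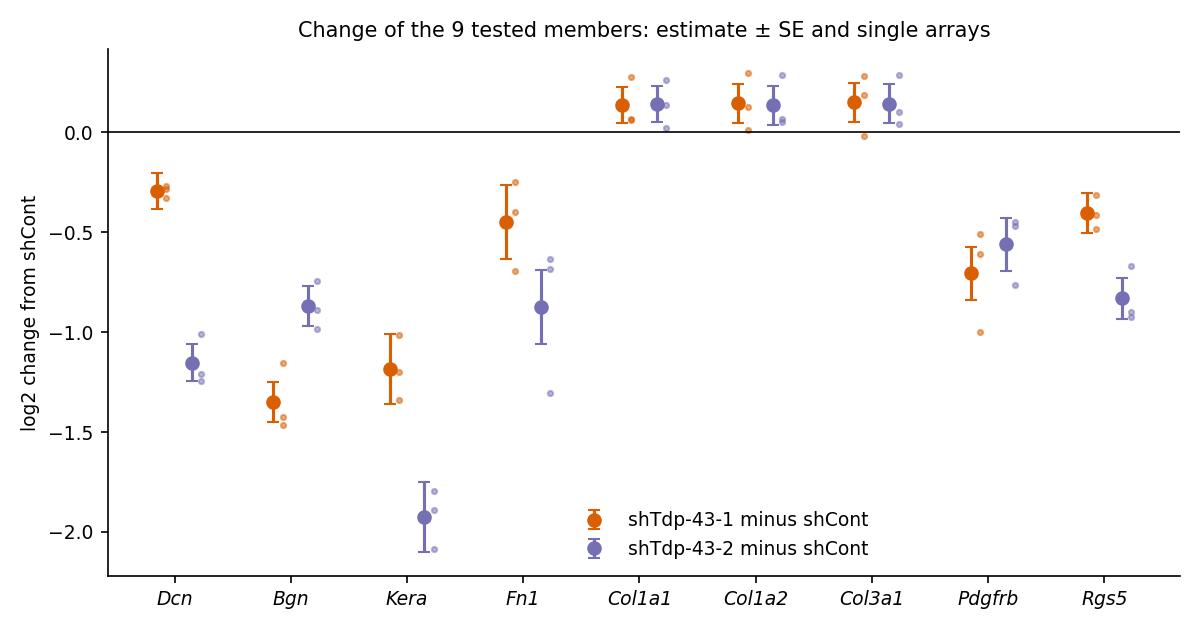
Log2 change from shCont of the 9 tested members (vertical axis), with the estimate and its SE (large points and bars) and single arrays minus the shCont mean (small points), shTdp-43-1 to the left of shTdp-43-2 for each gene. The 3 collagens lie just above 0 and the other 6 genes below it, and the order of the hairpins differs between Bgn on one side and Dcn, Kera and Rgs5 on the other.

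Set side by side on one array, the members were far apart. The change from the shCont mean spanned 1.45 to 1.61 log2 units over the 9 members on a shTdp-43-1 array and 1.85 to 2.37 on a shTdp-43-2 array. On single shCont arrays the same span was 0.35 to 0.77. These arrays enter the shCont mean themselves and the members were chosen by their response, so a narrower span was built in. Within the proteoglycans, Bgn changed by 1.05 ± 0.166 log2 units more than Dcn in the downward direction with shTdp-43-1 (a difference of -1.05), whereas with shTdp-43-2 it was the other way, with a difference of 0.28 ± 0.0661 (SD, n = 3 each). Kera minus Dcn was -0.89 ± 0.169 and -0.77 ± 0.189. For the pericyte genes, Rgs5 minus Pdgfrb was 0.30 ± 0.342 for shTdp-43-1, and -0.27 ± 0.168 for shTdp-43-2. In the matrix proteins, Fn1 minus Col1a1 was -0.58 ± 0.346 and -1.01 ± 0.486. Whether one factor common to the members could give these values was not tested, and neither was the part of a change in cell share.

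The difference between the hairpins follows from the same 2 contrasts that chose the members, so it is given as a description too, and no test of it is read. Of the 9 tested members, 3 were called lower and 1 higher with shTdp-43-2 than with shTdp-43-1, beside 7.31% lower and 4.22% higher over all tested genes. In Dcn the log2 difference was -0.86 ± 0.0914 (SE), with all 3 shTdp-43-2 arrays below every shTdp-43-1 array. In Bgn it was 0.48 ± 0.0998, with all 3 above. Both kept their direction and their call in all 18 alternative settings. These settings reuse the same arrays and the same choice of members, so they give no independent support.

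Kera differed by -0.74 ± 0.175 and Rgs5 by -0.43 ± 0.100. In both genes the 3 shTdp-43-2 arrays lay below the 3 shTdp-43-1 arrays. How common such a separation is over all tested genes was not counted, so nothing is read from it for any member. The Kera call was lost without shTdp-43-1 replicate 2 (log2 difference -0.65), shTdp-43-1 replicate 3 (-0.75) or shTdp-43-2 replicate 3 (-0.66), and the Rgs5 call without shTdp-43-1 replicate 1 (-0.38) or shTdp-43-2 replicate 1 (-0.39). Tardbp itself differed by 0.03 between the hairpins (95% interval -0.38 to 0.43, adjusted p = 0.956, limma).

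The remaining 5 tested members were not called between the hairpins. Fn1 differed by -0.43 ± 0.185 and Pdgfrb by 0.15 ± 0.133. The differences of the 3 collagens were 0.01 ± 0.0909 for Col1a1, -0.01 ± 0.0975 for Col1a2 and -0.01 ± 0.0972 for Col3a1. Lum could enter a fit only when genes with 1 kept probe set were admitted or the dim filter was loosened or dropped. It was then higher with shTdp-43-2 than with shTdp-43-1, by 1.49, 1.26 and 1.13 on the log2 scale.

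**Figure D4:**
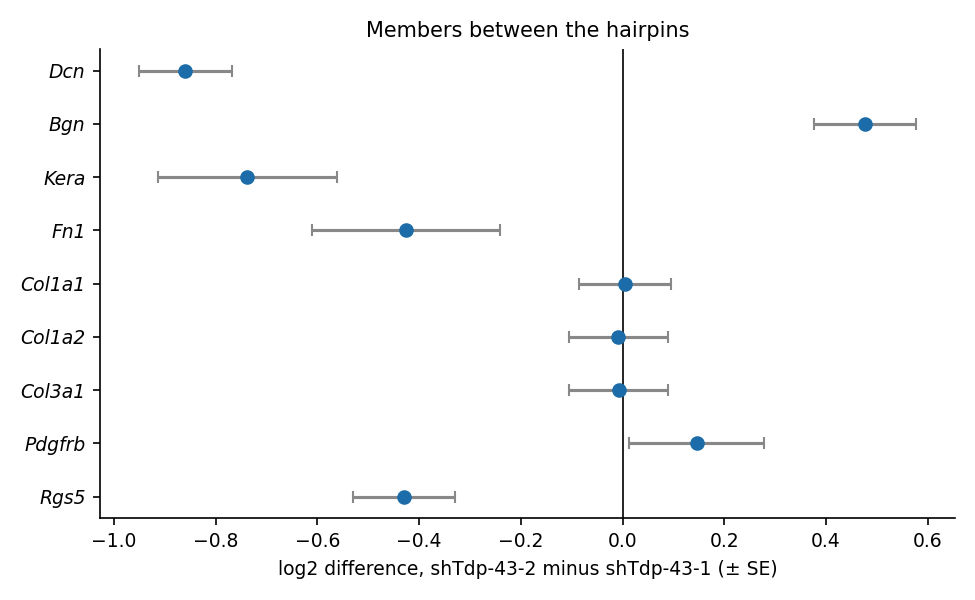
Log2 difference between the hairpins, shTdp-43-2 minus shTdp-43-1, for the 9 tested members (horizontal axis; points are differences of group means of 3 arrays each, bars the SE of the limma fit). Dcn, Kera, Rgs5 and Fn1 lie left of 0, Bgn and Pdgfrb lie right of it, and the 3 collagens lie between -0.01 and 0.01.

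Usage of single probe sets within a gene comes from the same contrasts as the choice of members and is given as a description. With limma's diffSplice, 4 of 259 member probe sets (1.54%) were called with shTdp-43-1 and 8 (3.09%) with shTdp-43-2, beside 0.494% and 1.24% of all 248701 probe sets. These calls are not read, because on simulated data in which probe sets differ in spread the method made more false than true calls. When each probe set kept its own spread, an alternative chosen after seeing the data, limma called 0 of 259 with shTdp-43-1 and 2 with shTdp-43-2, beside 0.00523% and 0.151% of all probe sets. At an unadjusted p under 0.05 there were 39 (15.1%, beside 7.79% of all probe sets) and 40 (15.4%, beside 9.37%). The pair were Kera probe set 5000413, which fell further than the rest of its gene (usage change -1.68 on the log2 scale), and Bgn probe set 4881856. The latter did not fall with the rest of Bgn (usage change 1.19). It measured 8.40, 8.26 and 8.19 with shTdp-43-2 and 8.05, 7.82 and 8.30 with shCont.

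Promoter sequences were available in the RefSeq table (GRCm38.p6) for 5 of the 10 members, each running from 250 bases before to 50 after the start of the gene. Shown are Kera and Bgn, the members furthest below shCont with shTdp-43-2 and with shTdp-43-1, and Col1a2 and Col3a1, which were not called with either. Capitals mark the TATA motif TATAAA, the box CCAAT and the GC box GGGCGG, searched on both strands; a match on the minus strand appears as its reverse complement. The windows are chr10:97606955-97607254 for Kera, chrX:73483351-73483650 for Bgn, chr6:4505368-4505667 for Col1a2 and chr1:45311288-45311587 for Col3a1, all on the plus strand.
Kera: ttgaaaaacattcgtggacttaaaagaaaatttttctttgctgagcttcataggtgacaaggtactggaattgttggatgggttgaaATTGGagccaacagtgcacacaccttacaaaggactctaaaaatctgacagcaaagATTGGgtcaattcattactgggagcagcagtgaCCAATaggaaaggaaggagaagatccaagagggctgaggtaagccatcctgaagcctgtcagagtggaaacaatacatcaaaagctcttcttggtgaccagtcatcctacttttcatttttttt
Bgn: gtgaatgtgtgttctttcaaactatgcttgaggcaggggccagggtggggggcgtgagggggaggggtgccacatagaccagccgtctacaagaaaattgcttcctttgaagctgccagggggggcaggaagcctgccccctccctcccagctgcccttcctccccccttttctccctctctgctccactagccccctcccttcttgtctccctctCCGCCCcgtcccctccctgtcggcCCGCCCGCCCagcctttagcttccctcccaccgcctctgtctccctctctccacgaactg
Col1a2: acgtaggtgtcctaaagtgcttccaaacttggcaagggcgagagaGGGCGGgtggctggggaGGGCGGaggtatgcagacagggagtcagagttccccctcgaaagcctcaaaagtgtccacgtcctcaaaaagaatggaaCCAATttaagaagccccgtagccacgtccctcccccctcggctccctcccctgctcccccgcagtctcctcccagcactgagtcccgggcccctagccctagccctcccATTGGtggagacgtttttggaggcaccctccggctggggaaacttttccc
Col3a1: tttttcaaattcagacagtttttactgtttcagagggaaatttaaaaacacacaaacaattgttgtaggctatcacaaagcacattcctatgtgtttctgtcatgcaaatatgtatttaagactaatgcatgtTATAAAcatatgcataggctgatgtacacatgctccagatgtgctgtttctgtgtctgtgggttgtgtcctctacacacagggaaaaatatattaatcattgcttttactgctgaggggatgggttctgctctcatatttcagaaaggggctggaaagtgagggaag

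Kera and Bgn share none of these motifs. The Kera window is 41.0% G and C and holds 3 CCAAT matches, while the Bgn window is 63.7% G and C and holds 3 GGGCGG matches, of which 2 overlap each other. Col1a2, at 61.0%, holds 2 matches each of CCAAT and GGGCGG, and Col3a1, at 37.7%, holds 1 TATAAA. The Rgs5 window (52.3% G and C) has 1 CCAAT match. Over 32851 mouse promoter windows of this length, 13.6% hold TATAAA, 37.4% hold CCAAT and 35.7% hold GGGCGG; the median window is 52.7% G and C. A CArG box, the motif of serum response factor, is in 1.63% of all windows and in none of the 5. These matches describe letters in a window and carry no statement about a factor.

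Genes of the same matrix and cell types were read from 15 lists with 184 genes, of which 174 were tested. With shTdp-43-1, 15 were called lower and 9 higher (13.8%, beside 11.1% of all tested genes), and with shTdp-43-2 15 lower and 20 higher (20.1%, beside 21.9%). When arrays were centred on their median, the split with shTdp-43-2 became 11 lower and 31 higher. For all genes centring turned the split as well: 884 lower and 1214 higher against 1000 and 865 with shTdp-43-1, and 1717 lower and 2178 higher against 2366 and 1301 with shTdp-43-2. Calls of members did not depend on it. Over the 174 genes the median change with shTdp-43-2 was 0.03.

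Of the other small leucine-rich proteoglycans, 0 of 6 tested were called with either hairpin by limma, and 1 had an unadjusted p under 0.05 with each. Their median changes were 0.01 and 0.02. Aspn, Ogn, Omd and Fmod had too few kept probe sets to be tested. Among 11 fibril-associated and other interstitial collagens, shTdp-43-1 gave 1 called lower and shTdp-43-2 gave 2 called higher. Col12a1, a fibril-associated collagen, changed by -0.72 and 0.22, with a called difference of 0.94 between the hairpins. Col14a1, of the same kind, rose with shTdp-43-2 (0.69; 0.21 with shTdp-43-1, not called). Col5a2, which nucleates type I fibrils and is the neighbour of Col3a1 on chromosome 1, rose with shTdp-43-2 by 0.26, a call that was lost without shTdp-43-2 replicate 1 or 3 or any single shCont array (adjusted p up to 0.0892, limma), with eBayes with trend (0.0564) and with the median of probe sets (0.16, adjusted p = 0.337).

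Of 16 tested matrix glycoproteins, 3 were called lower and 2 higher with shTdp-43-1, and 1 lower and 3 higher with shTdp-43-2. Sparc, which binds collagen and is abundant in glia and vessels, measured 10.70, 10.79 and 10.54 with shTdp-43-1, 11.55, 11.49 and 11.54 with shTdp-43-2, and 11.58, 11.42 and 11.60 with shCont. It fell with shTdp-43-1 by 0.86 and the difference between the hairpins, 0.85, was called. Thbs1 (thrombospondin 1, a matrix protein that activates TGF-beta) fell with shTdp-43-1 by 0.67 and was 0.94 higher with shTdp-43-2 than with shTdp-43-1. Thbs2 rose with shTdp-43-2 (0.98; 0.05 with shTdp-43-1, not called), and Fbln2 (fibulin 2) rose with both, by 0.43 and 0.79; its call with shTdp-43-1 was kept in 10 of 18 settings.

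Enzymes that modify and process collagen were called lower in 3 of 14 with shTdp-43-1 and in 1 of 14 with shTdp-43-2, and higher in 0. Plod2, a lysyl hydroxylase that prepares collagen for cross-linking, changed by -0.59 and -0.60, although the call with shTdp-43-1 was lost without its replicate 2 or 3 or any single shCont array (adjusted p up to 0.118, limma), with the median of probe sets (0.0743) or with 1 probe set admitted (0.0637), and that with shTdp-43-2 was lost without shCont replicate 1 (adjusted p = 0.0647, limma). P4ha3, a prolyl hydroxylase, fell with shTdp-43-1 (-0.50; 0.24 with shTdp-43-2, not called) and differed by 0.74 between the hairpins. Its first call was lost with the median of probe sets (adjusted p = 0.0650, limma), and with shTdp-43-2 it was called higher with arrays centred (0.32, adjusted p = 0.0119) or quantile normalization (0.00826). Adamts2, which trims procollagen, fell with shTdp-43-1 by 0.45, a call kept in 8 of 18 settings. In the basement membrane list, 1 of 11 was called lower with shTdp-43-1, and 3 lower and 1 higher with shTdp-43-2. Lama2, the laminin chain of muscle, glia and vessel walls, fell with both hairpins, by 0.74 and 0.55, in all 18 settings. Lamb1 fell with shTdp-43-2 (-0.49; -0.27 with shTdp-43-1, not called), a call lost without shCont replicate 1, shCont replicate 2 or shTdp-43-2 replicate 3 (adjusted p up to 0.0774, limma) or with the median of probe sets (0.0620). Nid2 (nidogen 2) was called lower (-0.24) and the laminin chain Lama5 higher (0.22) with shTdp-43-2, in 9 and 1 of 18 settings.

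In the list of PDGF and TGF-beta signalling, 3 of 17 were called lower and 2 higher with shTdp-43-1, and 2 lower and 4 higher with shTdp-43-2. Tgfbr1, the type I receptor of TGF-beta, measured 9.36, 9.28 and 9.28 with shTdp-43-1, 10.05, 9.92 and 9.79 with shTdp-43-2, and 10.98, 10.69 and 10.35 with shCont. It fell with both hairpins, by 1.36 and 0.75, in all 18 settings. Ccn2, a matricellular target of TGF-beta, went the other way with shTdp-43-2, at 0.90 higher, and changed by 0.01 with shTdp-43-1. Of the ligands, Pdgfc fell by 0.62 and 0.48 and Pdgfa rose with shTdp-43-2 by 0.50. The Pdgfc call was lost with shTdp-43-1 without its replicate 3, and with shTdp-43-2 without its replicate 2 or 3 or shCont replicate 1 or 2 (adjusted p up to 0.0792, limma). Of 12 matrix receptors, 0 were called lower by limma (1 and 0 at an unadjusted p under 0.05); 1 was called higher with shTdp-43-1 and 4 with shTdp-43-2. Itga2, a collagen-binding integrin chain, rose with shTdp-43-2 by 0.78, and Itgb1, the chain shared by many matrix integrins, by 0.45. Itgb3 was called higher with both, at 0.53 in 18 and at 0.32 in 10 of 18 settings, and Itga1 with shTdp-43-2 (0.38) in 8 of 18.

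The next lists mark the cells known to make these genes. Of 17 tested meningeal fibroblast markers, 0 were called lower with either hairpin by limma (1 and 0 were lower at an unadjusted p under 0.05). With shTdp-43-1, 0 were called higher either (3 at an unadjusted p under 0.05), and with shTdp-43-2 the follistatin-related Fstl1 (0.49) and the matrix protease Mmp2 (0.40) rose; the Mmp2 call was kept in 11 of 18 settings. The mean of the list was 8.11 to 8.20 with shTdp-43-1, 8.14 to 8.30 with shTdp-43-2 and 7.98 to 8.11 with shCont. Of 13 other pericyte markers, Notch3, the mural cell receptor, fell with both hairpins, by 0.46 and 0.42, and the adhesion molecule Mcam rose with both, by 0.54 and 0.83. Des (desmin) was called higher with shTdp-43-1 (0.41) in 6 of 18 settings. The mean of that list was 7.55 to 7.65 with shTdp-43-1, 7.49 to 7.65 with shTdp-43-2 and 7.47 to 7.56 with shCont. The Notch3 call was lost with shTdp-43-1 without its replicate 2 or 3 or shCont replicate 1 or 2 (adjusted p up to 0.0711 among these, limma), and with shTdp-43-2 without shCont replicate 1 (0.0592). With the median of probe sets it was lost for both (0.155 and 0.0564). Of 8 smooth muscle markers, 0 were called by limma with either hairpin, and 0 had an unadjusted p under 0.05. Their mean was 7.32 to 7.67 with shTdp-43-1, 7.33 to 7.67 with shTdp-43-2 and 7.40 to 7.52 with shCont. Whether the meningeal, pericyte and smooth muscle markers lay above background was not tested, so their counts are not read as cell numbers.

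**Figure D5:**
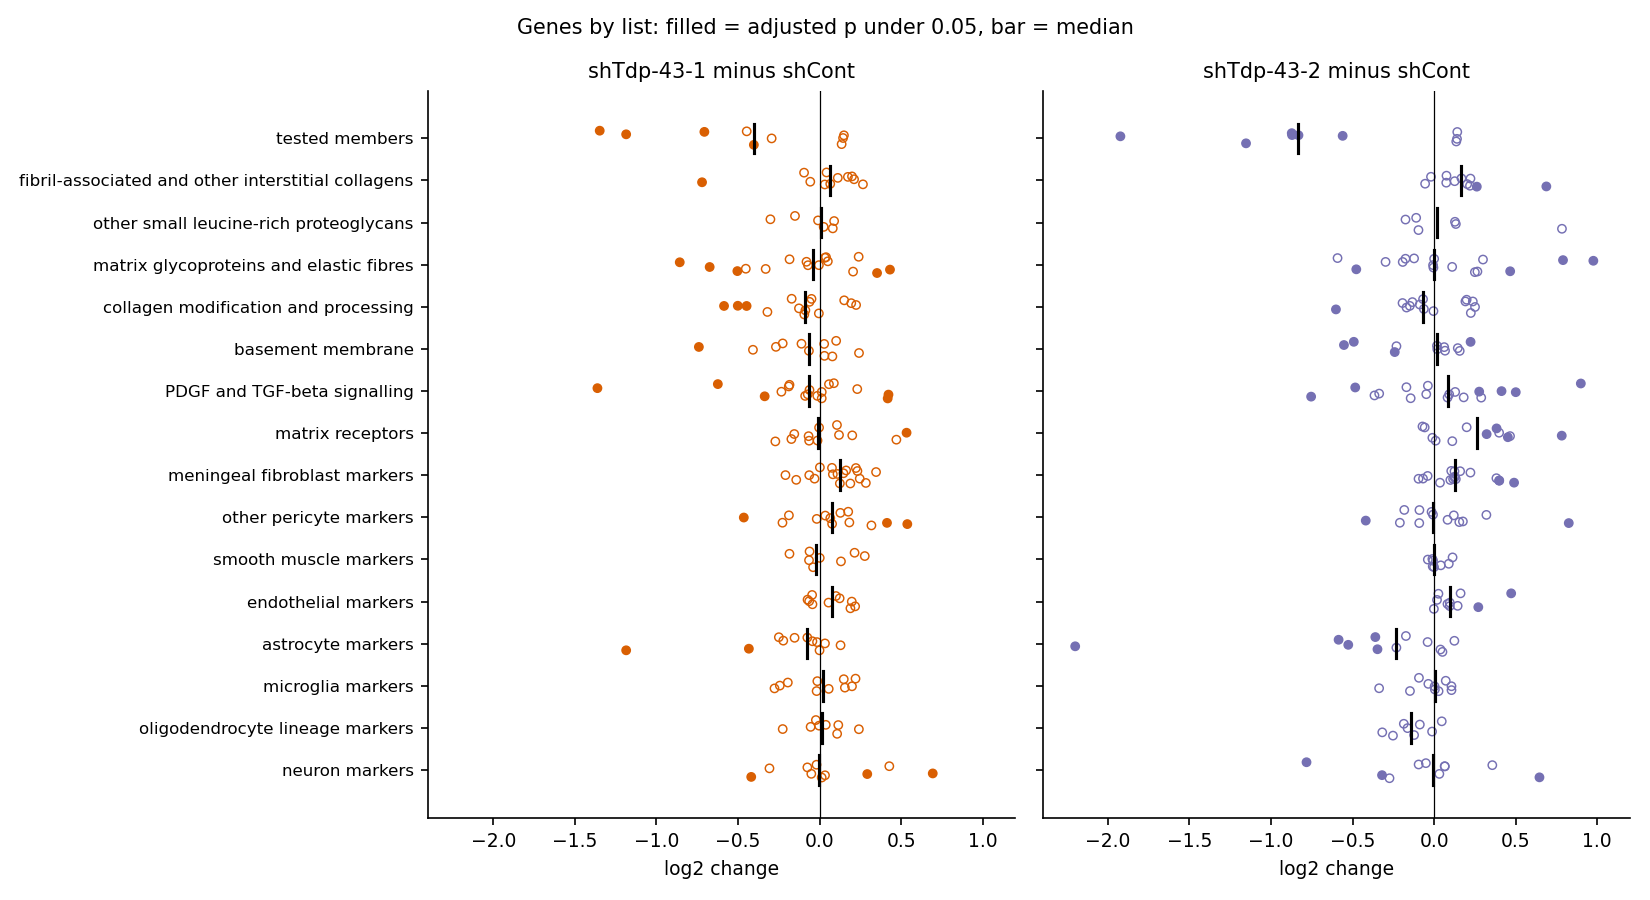
Log2 change from shCont of the 9 tested members (top) and of the tested genes of 15 other lists, one point per gene, for shTdp-43-1 on the left and shTdp-43-2 on the right; filled points have an adjusted p under 0.05 by limma and black bars are medians. The bars of the members stand at -0.40 and -0.83; the members were chosen with these contrasts known, so nothing is read from their place. The meningeal fibroblast bars stand at 0.12 and 0.13 and the other pericyte bars at 0.08 and -0.01.

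The lists of other cell types gave the following counts. Of 10 endothelial markers, 0 were called with shTdp-43-1 by limma (2 at an unadjusted p under 0.05), and Emcn (0.47) and Tek (0.27) were called higher with shTdp-43-2; the Tek call was kept in 3 of 18 settings. For 10 microglia markers and 8 oligodendrocyte markers, 0 were called with either hairpin by limma, and 0 and 1 of them had an unadjusted p under 0.05, the one with shTdp-43-1. On shCont arrays the list means were 7.22 to 7.25 (endothelial), 7.51 to 7.58 (microglia) and 9.34 to 9.44 (oligodendrocyte). Whether the markers of these lists lay above background was not tested. Of 11 astrocyte markers, 2 were called lower with shTdp-43-1 and 5 with shTdp-43-2, and 0 higher. Agt, the angiotensin precursor made by astrocytes, fell by 1.19 and 2.20, and the water channel Aqp4 by 0.43 and 0.59, of which the first call was kept in 11 of 18 settings. With shTdp-43-2 the bicarbonate transporter Slc4a4 (-0.53) and the gap junction gene Gja1 (-0.36) were called lower, in 16 and 11 of 18 settings. The mean of the astrocyte list was 9.84 to 9.87 with shTdp-43-1, 9.61 to 9.72 with shTdp-43-2 and 10.00 to 10.14 with shCont; its part in the results on the members was not tested. Among 10 neuron markers, 1 was called lower and 2 higher with shTdp-43-1, and 2 lower and 1 higher with shTdp-43-2. Neurod6, a factor of excitatory cortical neurons, fell by 0.42 and 0.78 (the first call was lost without shCont replicate 2, adjusted p = 0.0592, or shTdp-43-1 replicate 2, 0.0548), and Gad2, an enzyme that makes GABA, rose by 0.69 and 0.65. Gad1, the other enzyme of that step, was called higher with shTdp-43-1 (0.29, in 10 of 18 settings) and lower with shTdp-43-2 (-0.32, in 16 of 18).

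The genes whose profile over the 9 arrays was most like the mean of the tested members were Miga1 (Pearson correlation 0.989), Nkap (0.988), Abhd3 (0.988), Agt (0.982) and Slc25a20 (0.982), followed by Gpn1, Cdkl3, Agk, Pygo1 and Med7, down to 0.977. All 10 were lower with both hairpins and lowest with shTdp-43-2, from -0.28 and -0.48 for Pygo1 to -1.19 and -2.20 for Agt. The 9 arrays form 3 groups, whose means enter these coefficients. The deviations from the group means correlated at 0.57 to 0.90 for the 10 genes. These deviations also enter the coefficient by which the genes were picked, so high values are partly built in. Both measures are given as a description.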

How the data were processed

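RNA abundance was measured on Affymetrix Mouse Exon arrays. The deposited table gives, for every array, exon-level probe set values on the log2 scale. The authors computed them by RMA (all-exon analysis in Expression Console, build mm9), per the labels' descriptions and the submitters' processing notes, with no versions stated there. RMA subtracts background and brings arrays to one distribution, so that dim values are compressed and shared shifts are reduced. No per-sample column was left unused (0).

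Of 1256831 probe sets, 318760 carry 1 symbol in the platform annotation and 6684 several, which were not used. Symbols were updated through RefSeq (GRCm38.p6). Gene values, filters and the limma model (version 3.58.1, R 4.3.3; lmFit and eBayes, 6 residual degrees of freedom, Benjamini-Hochberg over all tested genes) are described with the results; the fits were tested on simulated data. Exon usage was tested with diffSplice.

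The members and lists were chosen with earlier results of these data known. Named genes are the members, Tardbp, up to 4 called genes of each list by size of change, the 10 genes most like the members' mean, and up to 3 probe sets of each member with called usage. Pdgfb and Tgfb2 were named besides, as the remaining called ligands of their list. The labels do not say whether the 3 arrays of a group come from separate cultures, so p-values measure the spread between these samples, which may be technical. With 3 arrays against 3, an exact two-sided permutation test cannot go below 0.1, so none was used. The number of arrays limits the precision. Alternatives were other dim filters, array centring, quantile normalization, the median of probe sets, 1 probe set per gene, a trend in eBayes, a replicate block and leaving out each array. Some list genes are not reported here.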

Additional observations from a re-analysis of the deposited data

Results flagged for a closer look

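In 4 members the difference between the hairpins (shTdp-43-2 minus shTdp-43-1) had an adjusted p under 0.05 in the limma fit over 16770 genes. The members were chosen with both hairpin responses on these arrays known, so the test is not independent of the choice and the values are a description. The log2 difference was -0.86 for Dcn, 0.48 for Bgn, -0.74 for Kera and -0.43 for Rgs5. The order of the hairpins was opposite for Dcn and Bgn, at Tardbp levels of 30.4% and 30.9% of shCont. Groups of 3 arrays were too small to be searched for a single outlying array.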

How the results depend on the processing

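No result changed direction while called. Of the single gene results, 2231 of the comparisons with an alternative kept their side of the threshold, 178 lost the call and 21 gained it. The count of other list genes called with shTdp-43-1, 24, became 15 with the median of probe sets and ranged from 12 (without shCont replicate 1 or 2) to 26 when single arrays were left out (13 without shTdp-43-1 replicate 2, 14 without its replicate 3). With shTdp-43-2 the count of 35 ranged from 21 (without shCont replicate 1) to 41. The members' median with shTdp-43-1, -0.40, became -0.30 with the median of probe sets and ranged from -0.45 to -0.32 without single arrays. With shTdp-43-2 it was -0.83, and -0.91 to -0.66 without single arrays. It was -0.69 when probe sets were dropped below the 25th percentile only, -0.65 when none were, and -0.70 with genes of 1 probe set admitted. In these last settings Lum entered, so the median is over 10 members instead of 9. With genes of 1 probe set admitted, the log2 changes of the other members stayed the same, and only the entry of Lum moved the median. The count of 4 members called between the hairpins ranged from 3 to 4 without single arrays. Usage calls of diffSplice, 4 and 8, became 0 and 2 with each probe set's own spread, chosen after seeing the data, and ranged from 3 to 5 and from 3 to 9 without single arrays. For usage, eBayes with trend was not run, since diffSplice takes no trend.

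Replicate numbers are shared by the groups. Deviations of same-numbered arrays correlated at 0.34 to 0.59 for replicate 1, -0.38 to 0.04 for replicate 2 and 0.13 to 0.32 for replicate 3. The main fit did not take the numbers as a pairing, and a replicate block was run as an alternative. Over all genes the block called 1273 lower and 1080 higher with shTdp-43-1 (1000 and 865 without it). With shTdp-43-2 it called 2609 lower and 1498 higher (2366 and 1301 without it). With the replicate block, 31 and 43 list genes, 4 members between the hairpins, and 5 and 8 usage probe sets were called, and the members' medians stayed at -0.40 and -0.83. With arrays centred, list genes between the hairpins were 5 lower and 21 higher, against 6 and 14.

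Dim probe sets limit single values: the change of Dcn with shTdp-43-2 was -1.15 with the dim filter and -0.74 without it, and Lum rests on 1 probe set. Neither the cells that made each RNA nor detection above background was measured here.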
